A study of Homo sapiens with 2 samples.

Results

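JAK2, the cytoplasmic tyrosine kinase that works with the erythropoietin receptor, and its STAT5 branch were examined in HEL cells, a human erythroleukemia line that carries an activating JAK2 mutation. The 9 genes, JAK2, EPOR, STAT3, STAT5A, STAT5B, CISH, SOCS2, SOCS3 and PIM1, were chosen by name for their role in the pathway out of the 61806 Ensembl genes in the count table. The rule set no threshold on their values, but earlier results of these data were known when it was made. HEL cells, labelled as wild type in genotype, were given either 0.5% DMSO or L1, a derivative of 3,3′-diindolylmethane, at 1 µM, and RNA was taken after 24 h. The labels do not say whether the L1 cells also received DMSO. Each condition was sequenced as 1 library of the same line, so differences between them lack a replicate check and carry no p-value. The intervals below are 95% intervals for counting error alone, and reads from PCR without molecular identifiers are not independent molecules.

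Cytokine receptors such as the erythropoietin receptor carry no kinase of their own and hold JAK2 on their cytoplasmic tail. Active JAK2 phosphorylates the receptor and the STAT factors, which pair, enter the nucleus and switch on a short list of target genes. Several of these targets encode inhibitors of the same pathway, among them CISH and the SOCS proteins, so their mRNAs are widely used as a readout of STAT activity. In a JAK2-mutant erythroid line the kinase signals without the hormone.

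The libraries held 32556872 counts (DMSO) and 27135647 counts (L1). All 11 erythroid marker genes had at least 100 counts in the higher library, as did 6 of 8 megakaryocytic markers, while the platelet factor gene PF4 had no count in either. Of 17 markers of other cells, 5 had at least 100 counts in the higher library (CD4, LYZ, KRT18, KRT8 and CD79A) and 8 had no count in either. The summed erythroid markers were 0.24 higher in L1 on the log2 scale, while the megakaryocytic ones differed by -0.16 and those of other cells by -0.12. The part of such shifts in the values below was not tested. In bulk RNA, fewer cells of a kind and less RNA per cell cannot be told apart.

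Across the 9 genes the kinase, the receptor, STAT3, STAT5A and the feedback gene SOCS3 were within 11.2% of their DMSO level. STAT5B was almost doubled in the L1 library, and the feedback or survival genes SOCS2, PIM1 and CISH were lower. All 9 genes had at least 100 counts. None of them reached a 2-fold difference, while 6.05% of the 12365 genes with that many counts did (3.13% higher and 2.92% lower), as did 12.0% of the 18123 genes with at least 10 counts in either library. At 1.5-fold, STAT5B was the 1 member that was higher and SOCS2 the 1 that was lower. Of genes with at least 100 counts 15.6% passed 1.5-fold, 7.38% higher and 8.22% lower, and of those with at least 10 counts 25.2% did, 13.8% higher and 11.4% lower. The members' count was therefore near the background. In 2 of the 9 the whole counting interval lay above 0 and in 4 it lay below 0, where 30.5% and 36.7% of genes with at least 100 counts stood, 67.1% in all. The median log2 ratio of the 9 members was -0.04, and that of all genes kept was -0.004.

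**Figure D1:**
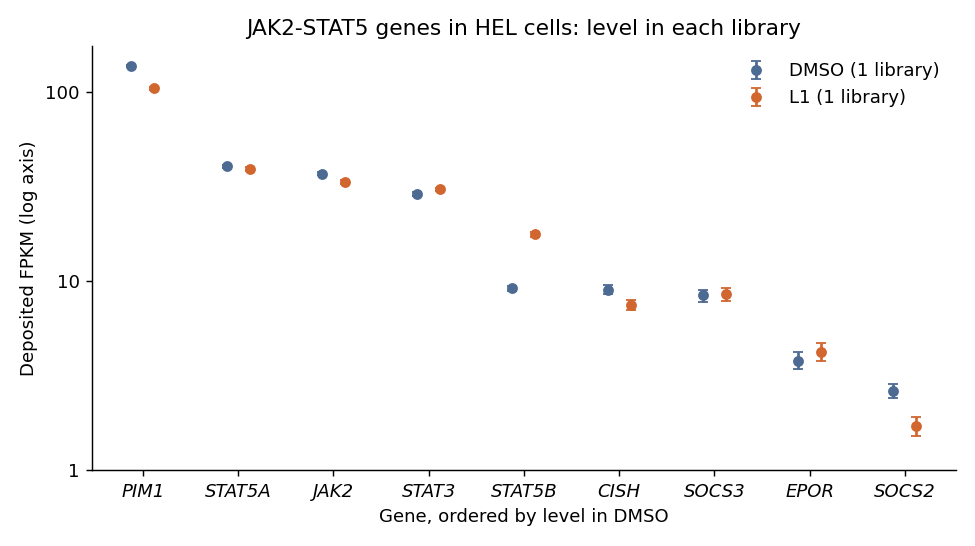
Deposited FPKM (fragments scaled to gene length and library size, log axis) of the 9 genes in the DMSO library (blue) and the L1 library (orange), ordered by the DMSO level; bars are 95% Poisson intervals of the counts. PIM1 stands highest at 137 and 105, STAT5B moves from 9.15 to 17.7, and SOCS2 is lowest at 2.64 and 1.71.

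Levels can be set side by side on the FPKM scale, which corrects for gene length. In the DMSO library the order was PIM1 (137), STAT5A (40.4), JAK2 (37.1), STAT3 (28.9), STAT5B (9.15), CISH (9.02), SOCS3 (8.40), EPOR (3.79) and SOCS2 (2.64). The counting intervals of STAT5B and CISH overlapped there, as did those of CISH and SOCS3, and every other pair of neighbours was apart. In the L1 library STAT5B stood clear of the genes below it at 17.7, and SOCS3 (8.55) came before CISH (7.45), although their intervals touched. The other positions were the same in both libraries.

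JAK2 (ENSG00000096968, chromosome 9 from 4984390 to 5128183 on the plus strand, GRCh38, GENCODE release 29) encodes the kinase. It had 9323 counts in DMSO and 7285 in L1, or 37.1 and 33.6 FPKM. The log2 ratio, here always L1 over DMSO, was -0.14 (interval -0.19 to -0.10), a level 9.42% lower. A ratio this small was common, as 36.1% of genes with at least 100 counts had a lower one. The counts do not separate mutant from normal JAK2 transcripts.

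EPOR (ENSG00000187266, chromosome 19 from 11377205 to 11384342, minus strand) encodes the erythropoietin receptor. Its mRNA was scarce, with 371 counts in DMSO and 356 in L1, or 3.79 and 4.22 FPKM. Its log2 ratio was 0.15 (interval -0.06 to 0.37), so a difference was not detectable at this depth. The EPO ligand itself had 5 counts in DMSO and none in L1, where a count of 0 allows up to 3, and no ratio is given. EPO is named here after its values were seen.

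The genes STAT5B, STAT5A and STAT3 lie in that order within one stretch of chromosome 17, from 42199168 to 42276707 on the minus strand, from 42287547 to 42311943 on the plus strand, and from 42313324 to 42388568 on the minus strand. They encode transcription factors, and STAT5A and STAT5B are close copies with overlapping roles in erythroid survival. STAT3 (ENSG00000168610) had 10299 and 9410 counts, or 28.9 and 30.6 FPKM, with a log2 ratio of 0.08 (interval 0.04 to 0.12). STAT5A (ENSG00000126561) had 8209 and 6867 counts, or 40.4 and 39.2 FPKM, with a log2 ratio of -0.04 whose interval (-0.09 to 0.002) included 0. STAT5A and STAT3 thus differed between the libraries by less than 10% either way.

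STAT5B (ENSG00000173757) behaved differently from STAT5A and STAT3. It had 3521 counts in DMSO and 5864 in L1, although the L1 library was the smaller one, and its FPKM was 9.15 and 17.7. The log2 ratio was 0.95 (interval 0.89 to 1.01), or 1.93-fold, and 3.50% of genes with at least 100 counts had a higher ratio. STAT5B supplied 9.72% of the summed FPKM of the 7 STAT genes in DMSO and 16.7% in L1, while STAT5A supplied 43.0% and 37.2%.

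Because STAT5A and STAT5B are so alike, the sequence that tells them apart bears on these values. Over 2348 aligned bases of their coding sequences (transcripts STAT5A-201 and STAT5B-201, GENCODE release 29) 89.0% were identical, with 1 unbroken identical stretch of 429 bases. The 60 coding bases that differ most are shown here because reads over such bases can be given to 1 gene only. They are coding bases 109 to 168 of both transcripts, counted from the A of the start codon, 5′ to 3′, and capitals mark the 21 bases that differ. In STAT5A they lie on chr17:42289520-42289905 across exons 3 and 4, and in STAT5B on chr17:42227646-42232019 across exons 2 and 3.
STAT5A: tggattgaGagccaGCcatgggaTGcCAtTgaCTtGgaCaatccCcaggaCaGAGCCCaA
STAT5B: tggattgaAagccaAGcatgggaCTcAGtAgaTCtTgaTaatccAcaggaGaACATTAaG

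Of all 31-base words in the STAT5B transcripts, 10.6% also occurred in STAT5A, and 4.25% of its 150-base words, the length of 1 read, did. For STAT5A 11.8% and 4.58% occurred in STAT5B. Whether the counting dropped, split or assigned reads over shared sequence is not given in the sources used here. Scaled to the L1 library, the DMSO counts of STAT5B were 3038, so L1 had 2826 more, while STAT5A had 215 fewer than its scaled 7082. The difference in STAT5A was thus the smaller of the 2. The part of read assignment between the genes in these values was not tested. With both genes summed, the counts were 11730 and 12731, a log2 ratio of 0.33 (interval 0.29 to 0.37). STAT5B made up 30.0% of the counts of the pair in DMSO (exact binomial interval 29.2% to 30.9%) and 46.1% in L1 (45.2% to 46.9%). This share does not depend on how the libraries are scaled. Per length, STAT5A was 4.42 times as abundant as STAT5B in DMSO and 2.22 times as abundant in L1.

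**Figure D2:**
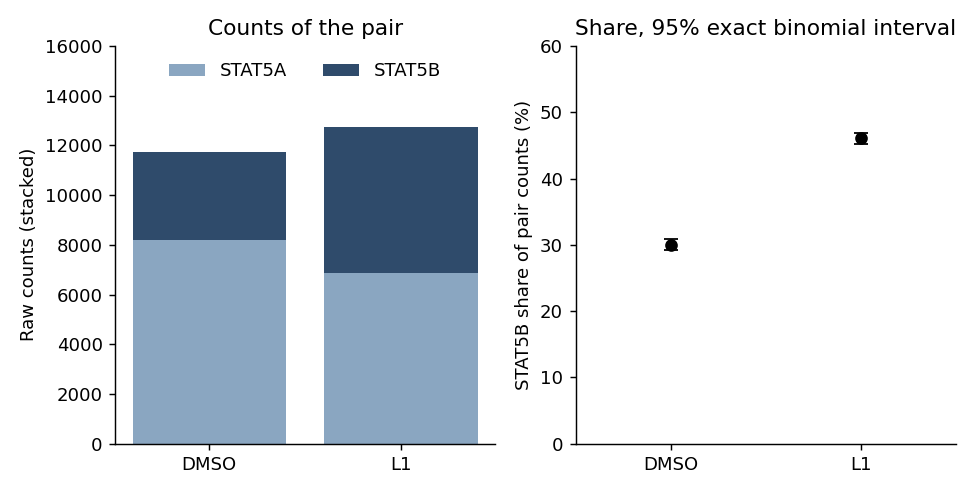
Left, raw counts of STAT5A (light) and STAT5B (dark) stacked for the DMSO and the L1 library; right, the share of STAT5B in the counts of the pair in percent, with its exact 95% binomial interval. The share is 30.0% in DMSO and 46.1% in L1, with 1 library per condition.

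CISH, SOCS2 and SOCS3 belong to the SOCS family, whose proteins bind phosphorylated receptors or JAK2 and damp the signal. CISH is a classic STAT5 target, and the 250 bases before its start, at chr3:50611775-50612024 on the minus strand (RefSeq, GRCh38.p14), are shown because they hold 4 matches to the STAT motif TTCNNNGAA, in capitals, written 5′ to 3′.
CISH promoter: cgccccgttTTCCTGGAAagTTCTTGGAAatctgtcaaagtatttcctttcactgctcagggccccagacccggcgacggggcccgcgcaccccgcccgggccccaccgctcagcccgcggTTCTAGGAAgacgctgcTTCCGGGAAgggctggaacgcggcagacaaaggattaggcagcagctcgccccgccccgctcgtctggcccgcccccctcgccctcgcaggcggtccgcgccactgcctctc
The motif reads the same on both strands, so 1 search covers both. The 4 matches do not overlap and begin 241, 230, 129 and 112 bases before the start. Of 35116 promoter windows of 300 bases, running from 250 bases before to 50 after a start, 7.66% held at least 1 match and 7 windows held 4 or more. The windows of JAK2, EPOR, STAT3, STAT5A, STAT5B, SOCS3 and PIM1 held none, and SOCS2 had no window in the table. A match is a run of letters and not a site shown to be bound in these cells.

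CISH (ENSG00000114737, chromosome 3 from 50606490 to 50611831, minus strand) had 1450 counts in DMSO and 1033 in L1, or 9.02 and 7.45 FPKM. The log2 ratio was -0.28 (interval -0.39 to -0.16), a level 17.4% lower. Its exons share 218 bases, 4.26% of their length, with those of MAPKAPK3 on the opposite strand, which had 9321 and 7322 counts and a log2 ratio of -0.14. Whether the counting used strand is not given in the sources used here, so some reads of the shared bases cannot be placed. With both genes summed the log2 ratio was -0.15. Most counts of that sum are from MAPKAPK3, so it says little about reads over the shared bases.

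SOCS2 (ENSG00000120833, chromosome 12 from 93569814 to 93583487, plus strand), another STAT5 target, was the lowest of the members in both libraries. It had 543 counts in DMSO and 303 in L1, or 2.64 and 1.71 FPKM. The log2 ratio was -0.63 (interval -0.84 to -0.42), a level 35.3% lower, and 7.29% of genes with at least 100 counts had a lower ratio. The antisense gene SOCS2-AS1, which overlaps 277 exonic bases, had 72 and 75 counts, and its own log2 ratio was 0.27 (interval -0.21 to 0.76). With all genes that overlap SOCS2 on either strand summed, the log2 ratio was -0.49.

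SOCS3 (ENSG00000184557, chromosome 17 from 78356778 to 78360077, minus strand), known best as a target of STAT3, had 730 counts in DMSO and 641 in L1, or 8.40 and 8.55 FPKM. The log2 ratio was 0.03 (interval -0.13 to 0.18), so a difference was not detectable at this depth. The counting intervals of the 3 feedback genes did not overlap one another, with SOCS2 lowest, CISH next and SOCS3 around 0. Summed, they went from 2723 counts to 1977, or -0.25 on the log2 scale (interval -0.33 to -0.16).

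PIM1 (ENSG00000137193, chromosome 6 from 37170203 to 37175426, plus strand) encodes a serine/threonine kinase that promotes survival and is induced by STAT5. It was the most abundant member by far, with 13244 counts in DMSO and 8694 in L1, or 137 and 105 FPKM. The log2 ratio was -0.39 (interval -0.43 to -0.36), a level 23.9% lower, and the interval was narrow because the gene is so deeply covered. The related kinases PIM2 and PIM3, named here after their values were seen, had log2 ratios of 0.06 and 0.05. PIM1 supplied 58.9% of the summed FPKM of the 3 PIM genes in DMSO and 51.1% in L1.

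**Figure D3:**
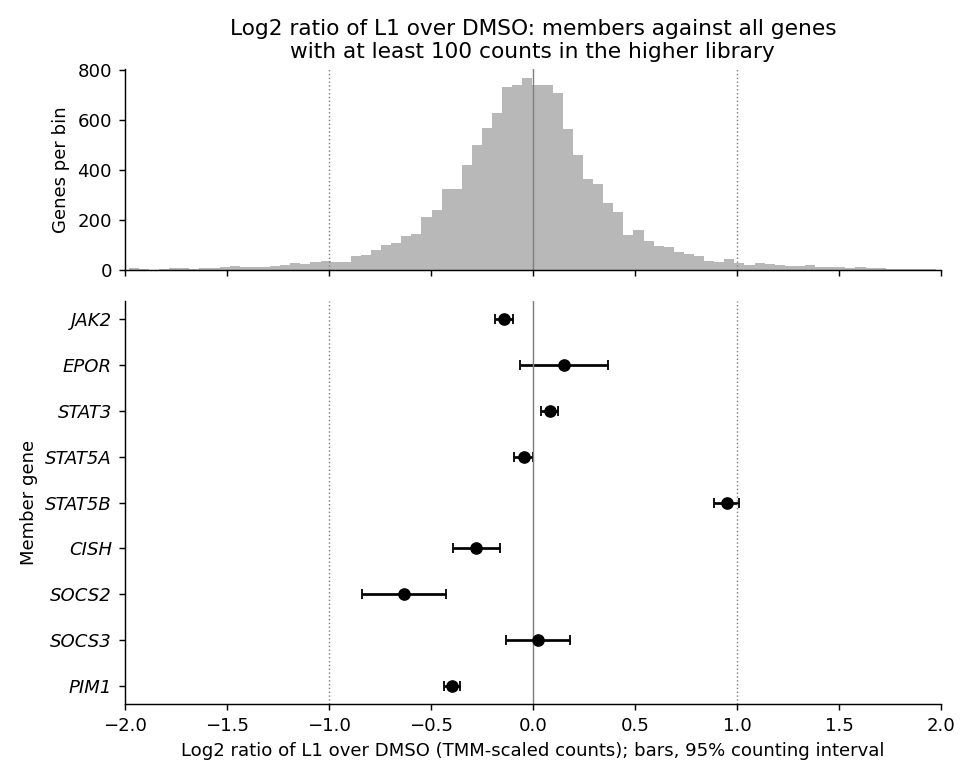
Top, the number of genes at each log2 ratio (L1 over DMSO) among genes with at least 100 counts in the higher library, of which 173 lie outside the axis; bottom, the log2 ratio of each of the 9 genes on the same axis with its 95% counting interval. STAT5B (0.95) lies near the dotted 2-fold line, SOCS2 (-0.63) and PIM1 (-0.39) lie left of 0, and EPOR, STAT5A and SOCS3 have intervals that include 0.

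A comparison with JAK2 inside each library needs no scaling. Per 1000 JAK2 counts, PIM1 had 1421 in DMSO and 1193 in L1, SOCS2 had 58.2 and 41.6, and CISH had 156 and 142. The log2 change relative to JAK2 was -0.25 (interval -0.31 to -0.19) for PIM1, -0.49 (interval -0.69 to -0.28) for SOCS2 and -0.13 (interval -0.26 to -0.01) for CISH. All 3 targets were thus lower in L1 relative to the kinase as well, although for CISH by little. The other 5 genes were higher relative to JAK2, each with an interval wholly above 0. STAT5B went from 378 to 805 per 1000 JAK2 counts, a log2 change of 1.09. The change was 0.30 (interval 0.08 to 0.51) for EPOR, 0.23 for STAT3, 0.17 (interval 0.01 to 0.33) for SOCS3 and 0.10 for STAT5A. JAK2 itself was 9.42% lower in L1, which enters all 8 of these changes.

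The rest of the pathway was followed in 7 lists of 116 genes, of which 87 had at least 10 counts in either library. Their median log2 ratio was -0.02, 3 passed 2-fold upward (all genes, 7.12%) and 1 downward (all genes, 4.83%). With at least 100 counts in the higher library the numbers were again 3 and 1, where 3.13% and 2.92% of all such genes passed. Of the 76 with at least 100 counts, 23 had a counting interval wholly above 0 and 31 wholly below 0, where 30.5% and 36.7% of all such genes stood. The list medians lay between -0.14 and 0.21.

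Among the other 7 JAK and STAT genes the median was 0.08 and none passed 2-fold. JAK1, a kinase of many interleukin receptors, had an FPKM of 24.2 in DMSO against 26.0 in L1, and a log2 ratio of 0.10. STAT4 (146 and 68 counts, log2 ratio -0.89) and JAK3 (1880 and 1114 counts, log2 ratio -0.54), the lymphoid kinase, were farthest from 0. JAK2 supplied 47.0% of the summed FPKM of the 4 JAK genes in DMSO and 44.4% in L1.

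Of 28 receptors that work through JAK kinases, 20 had at least 10 counts, with a median of -0.09 and none past 2-fold. IL7R, a receptor for interleukin-7, had 739 and 356 counts (log2 ratio -0.84), and IL4R, the receptor for interleukin-4, had 569 and 870 (log2 ratio 0.83). Ligand genes were nearly silent, as 9 of 19 had no count in either library and 4 reached 10 counts. IL7 (543 and 475 counts) and TSLP (150 and 141) were the 2 with at least 100 counts, and both of their intervals included 0.

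The 17 negative regulators had a median of -0.007, with none past 2-fold. SOCS7 was farthest from 0 (139 and 83 counts, log2 ratio -0.53). PIAS2, a SUMO ligase that restrains STAT factors (1243 and 796 counts), and PTPN6, the phosphatase SHP-1 (4612 and 2954 counts), tied behind it at a log2 ratio of -0.43. SH2B3, the adaptor LNK that holds JAK2 in check, had 39.3 FPKM in DMSO and 38.9 in L1. The 15 adaptors and positive regulators had a median of -0.01. SOS1, an exchange factor that links receptors to RAS, was the single member past 2-fold, at 3005 and 5537 counts and a log2 ratio of 1.09 (interval 1.03 to 1.16).

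Genes regarded as STAT5 targets outside the 9 went both ways. The 15 with enough counts had a median of -0.14, and 3 passed 2-fold, against 12.0% of all genes kept. Of these 3, 2 were higher (all genes, 7.12%) and 1 was lower (all genes, 4.83%). All 3 had at least 100 counts, as did 12 of the listed targets, and 6.05% of all genes with that many passed 2-fold. The higher ones were MCL1, a survival factor of the BCL2 family (1082 and 2436 counts, log2 ratio 1.38), and MYC, a growth regulator (724 and 1527 counts, log2 ratio 1.29). TFRC, which encodes the transferrin receptor, was lower (17721 and 6420 counts, log2 ratio -1.25). BCL2L1, which encodes BCL-XL and is the STAT5 target most tied to erythroid survival, had an FPKM of 46.3 in DMSO against 33.6 in L1 and a log2 ratio of -0.46 (interval -0.52 to -0.41). The antisense gene ABALON covers 43.0% of the exon bases of BCL2L1 and had a log2 ratio of -0.44. Of the D cyclins, CCND1 had a log2 ratio of -0.96, whereas CCND2 (-0.08) and CCND3 (0.02) had intervals that included 0. BCL2L1, the D cyclins, JAK1 and SH2B3 are named for their role, after their values were seen.

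The 11 measured STAT3 targets had a median of 0.21 and none passed 2-fold. Over the 9 with at least 100 counts the median was 0.08, and 4 had an interval wholly above 0 and 4 wholly below 0. Among these 9, VEGFA, the vascular growth factor, was farthest from 0 (1454 and 774 counts, log2 ratio -0.70), followed by BIRC5, which encodes survivin (2135 and 1270 counts, log2 ratio -0.54).

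**Figure D4:**
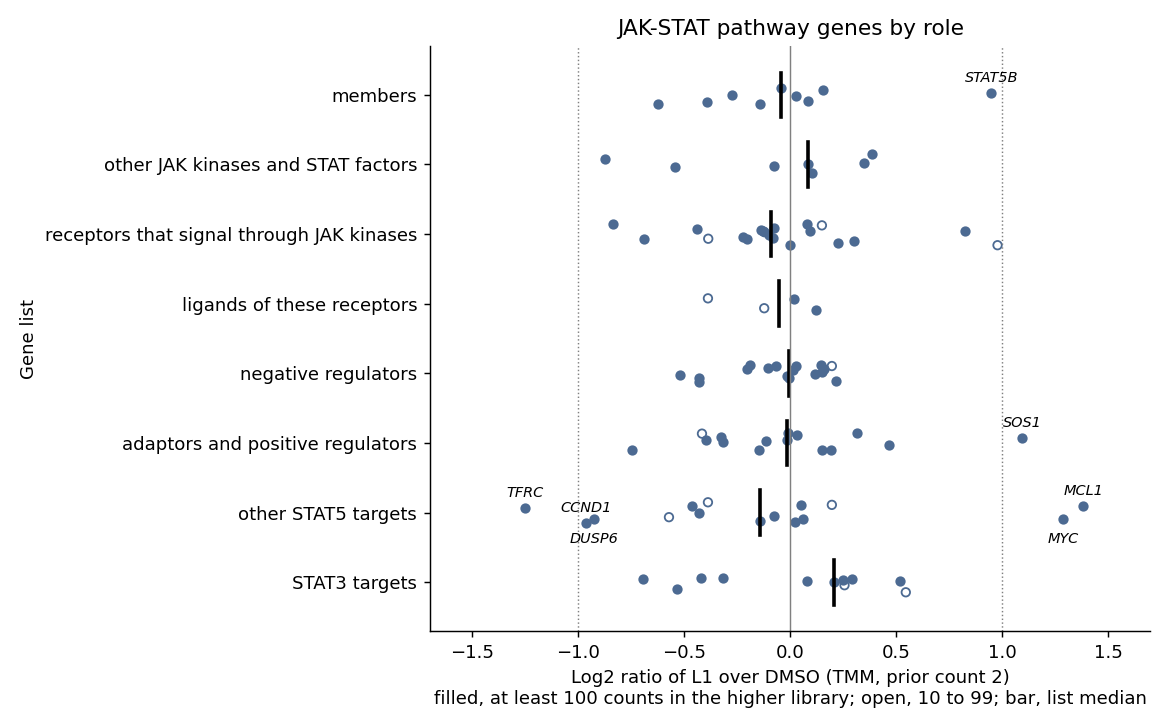
Log2 ratio of L1 over DMSO (TMM scaling, prior count of 2) for each gene with at least 10 counts in either library, by role in the pathway; filled points have at least 100 counts in the higher library, open points fewer, black bars are list medians and dotted lines mark 2-fold. Most genes lie within 2-fold, and MCL1, MYC and SOS1 lie above it while TFRC lies below.

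The choice of scaling moved all 9 ratios together and by little. STAT5A changed sign between the scalings, as did SOCS3, and both remained near 0. JAK2, EPOR, STAT3, STAT5B, SOCS2, PIM1 and CISH kept their side of 0 in each of the 4 scalings. For EPOR the counting interval included 0 all the same. The FPKM scale is no separate check. For all 9 members the ratio of the deposited FPKM equals the TMM-scaled count ratio until a constant is added.

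**Figure D5:**
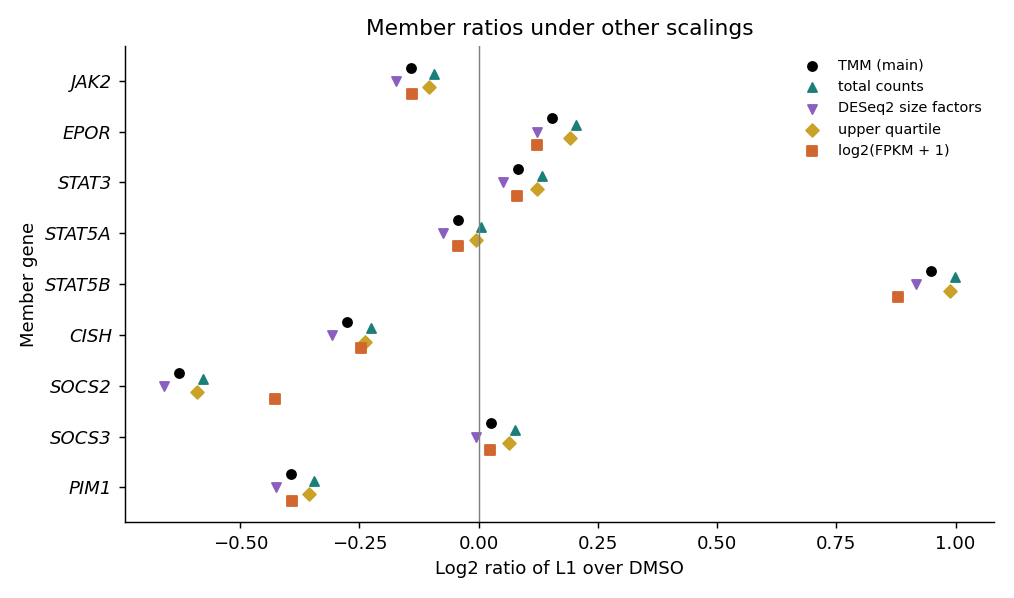
Log2 ratio of L1 over DMSO of the 9 genes with the counts scaled by TMM, the total, the upper quartile or DESeq2, and on the log2(FPKM + 1) scale. The FPKM values differ from TMM here only through the added 1. STAT5B stays between 0.88 and 1.00 and SOCS2 between -0.66 and -0.43, and STAT5A and SOCS3 sit on both sides of 0.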

How the data were processed

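RNA of HEL cells was enriched for mRNA and sequenced as 1 library per condition (DMSO or L1). Per the labels, the submitters' processing notes name fastp, HISAT2 2.1.0, StringTie and the build hg38. The authors deposited raw counts per Ensembl gene, without normalization, and FPKM values for 13924 genes. The annotation and counting program are not given in the sources used here.

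Counts were scaled here with edgeR 4.0.16 (TMM) in R 4.3.3, and by the size factors of DESeq2 1.42.0 as an alternative. Python 3.11.15 with scipy 1.17.1 and Biopython 1.88 did the rest. For lists and whole-table counts, a prior count of 2 was added and genes were kept with at least 10 counts in either library. A single gene's log2 ratio has no prior count and an exact Clopper-Pearson interval, and an FPKM has a Poisson interval. The interval relative to JAK2 is a normal approximation on the log scale. All cover counting error only. No test was possible with 1 library per condition. The TMM scaling, the 2-fold calls and the Clopper-Pearson intervals were tried on simulated libraries with counting noise only. The other steps were not simulated.

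Positions came from GENCODE release 29 (GRCh38), where 58254 of 61806 identifiers were found, and promoters from RefSeq (GRCh38.p14). The deposited files name no build, but the notes give hg38, which is GRCh38. Named genes are all 9 members, each list gene past 2-fold with at least 100 counts in the higher library, or otherwise the 2 farthest from 0 with that many counts. The members and gene lists were chosen with earlier results of these data known. The alternatives were other scalings, FPKM, prior counts, count minimums, fold thresholds and summed overlapping genes. Summing overlaps on either strand was added after seeing the data. The results of some genes and of 1 gene list are not reported here.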

Additional observations from a re-analysis of the deposited data

How the results depend on the processing

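No paired analysis was possible because DMSO and L1 have 1 library each. Of 66 values of the 9 members under the alternatives, 60 stayed within the gene's counting interval. Many of these values had little room to move. Same-strand sums equalled the main value for all 9 members, and a prior count of 2 barely changed it. The FPKM values repeat the TMM ratio apart from the added constant. With total counts JAK2 was -0.093, STAT3 0.13, STAT5A 0.0052 and PIM1 -0.34. STAT5B was 0.88 on log2(FPKM + 1) and 0.33 when summed with STAT5A. CISH was -0.15 when summed with MAPKAPK3, which supplies most counts of that sum. Members past the threshold were 1 higher and 1 lower at 1.5-fold and none under the other settings. All genes past 2-fold, 1290 higher and 876 lower, became 3544 and 1811 with no minimum count, 694 and 491 with 10 counts or more in both, 387 and 361 with at least 100 counts in the higher one, 2506 and 2065 at 1.5-fold, 566 and 345 at 3-fold, 547 and 350 with the whole interval past 2-fold, 199 and 153 on log2(FPKM + 1), and 348 and 298 on log2(FPKM + 0.1). The other pathway genes past 2-fold, 3 higher and 1 lower, became 8 and 2 with no minimum count, 5 and 8 at 1.5-fold and 0 and 0 at 3-fold. All 80 list medians recomputed stayed within their interval over list members, which is wide. The STAT3 target median was 0.075 on log2(FPKM + 1), and the medians of the members, negative regulators, adaptors and ligands, all near 0, changed sign under at least 1 setting. The causes were not tested beyond what each setting changes by construction. EPOR and SOCS2, the members with the fewest counts, had the widest intervals.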
